A study of Mus musculus with 18 samples.

Results

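The 8 genes described here, Car4, Enpp2, Wt1, Spic, Ly6g6e, Ngfr, Nrros and Fhl1, were taken by symbol from the 45706 genes of the count table. They were selected on changes measured in the same libraries. Car4, Enpp2 and Wt1 were chosen for switching on, and Spic and Ly6g6e for switching off, within 24 h of induction in wt cells. Ngfr, Nrros and Fhl1 were chosen because their response depended on the cell line. All 8 passed the filter on low counts, which left 16619 genes for testing. Their responses to induction and their differences from wt cells were used to choose them and are given as descriptions, without a test. Tests were made only between the 2 KO clones, and only for the 5 switch genes.

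The study followed mouse induced pluripotent stem cells (iPSCs), wt or KO for the chromatin protein gene Hmga2, as they were turned into epiblast-like cells (EpiLCs). The wt libraries came from 1 clone, and the KO libraries from KO clone #1 and KO clone #2, each with 3 independent biological replicates at 0 h and 3 at 24 h, in 6 groups and 18 libraries. At 0 h every line was grown on inactivated fibroblast feeders in serum with leukemia inhibitory factor and the inhibitors PD0325901 and CHIR-99021. At 24 h every line had been plated without feeders on a basement membrane matrix with Activin A and bFGF, so the time points differed in feeders, serum and inhibitors as well as in hours. All contrasts with wt therefore rest on a single wt clone, and how the KO alleles were made is not given in the sources used here.

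Total counts ran from 3466436 in replicate 1 of wt at 0 h to 23872837 per library, and 3 counts, the lowest level taken as detected, equalled 0.116 to 0.984 CPM, the usual depth-scaled count with TMM-scaled library sizes. This floor covers counting error only. RNA of Hmga2 itself, in replicates 1 to 3, was at 17.4, 13.3 and 22.4 CPM in wt at 0 h, 10.2, 4.59 and 1.75 CPM in KO clone #1 and 4.10, 1.84 and 8.25 CPM in the libraries labelled KO clone #2. At 24 h it was 5.87, 5.51 and 5.93 CPM in wt, 3.67, 2.25 and 0.871 CPM in KO clone #1 and 10.5, 3.02 and 3.48 CPM in the libraries labelled KO clone #2. The latter were thus not all below wt at 24 h. A gene count checks a deletion only if it covers the deleted part, and which part was deleted is not given in the sources used here. For the loss of Hmga2 the paper refers to a Western blot of the protein in wt and KO clones. Protein-coding genes took 82.3% to 84.7% of counts in the libraries labelled KO clone #2 at 24 h, against 41.6% to 63.4% in wt and 41.3% to 63.1% in KO clone #1. The summed level of 10 naive pluripotency genes was 2502 to 4303 CPM over all libraries at 0 h and 300.5 to 719 CPM at 24 h. That of 8 genes of the formative or primed state was 105 to 205 CPM at 0 h and 555 to 2210 CPM at 24 h, highest in the 3 wt libraries. The sum of 2 general pluripotency genes was 715 to 1815 CPM at 0 h and 887 to 1752 CPM at 24 h. By these sums all lines carried the markers of the labelled states. The formative sum at 24 h was 578 to 1160 CPM in KO clone #1. It was 555 to 1294 CPM in the libraries labelled KO clone #2, also below the 1331 to 2210 CPM of wt. Dnmt3a and Dnmt3b gave most of it. Otx2 alone had a higher mean in the KO clones (75.3 and 51.6 CPM) than in wt (42.9 CPM). Mean Zic2 fell in wt (45.7 to 24.9 CPM) and KO clone #1, while the other formative genes rose in each line. Mean Zfp42 (120 to 150 CPM) and Nr0b1 rose in KO clone #1, while the other naive genes fell in each line. Sox2 fell in each line while Pou5f1 rose.

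When naive pluripotent cells are released from leukemia inhibitory factor and kinase inhibition, they shut down the naive transcription factor network and pass through a formative state that resembles the early epiblast. Many genes of the naive state lose their transcripts within a day, while many genes that mark the epiblast are turned on. Several genes that switch in this step are better known from other tissues, among them a kidney and gonad factor, a macrophage factor and a neurotrophin receptor.

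Promoter windows from 250 bases before to 50 bases after the RefSeq start (GRCm38.p6) were at hand for 5 of the 8 genes, Car4, Spic, Ngfr, Nrros and Fhl1. Those of Car4, a gene that switched on, Spic, a gene that switched off, and Ngfr and Nrros, whose responses differed between lines, are printed here 5′ to 3′ on the strand of the gene, with matches to the 8 motifs searched in capitals. The windows are chr11:84957504-84957803 on the plus strand for Car4, chr10:88682974-88683273 on the minus strand for Spic, chr11:95587649-95587948 on the minus strand for Ngfr and chr16:32165545-32165844 on the minus strand for Nrros.
Car4: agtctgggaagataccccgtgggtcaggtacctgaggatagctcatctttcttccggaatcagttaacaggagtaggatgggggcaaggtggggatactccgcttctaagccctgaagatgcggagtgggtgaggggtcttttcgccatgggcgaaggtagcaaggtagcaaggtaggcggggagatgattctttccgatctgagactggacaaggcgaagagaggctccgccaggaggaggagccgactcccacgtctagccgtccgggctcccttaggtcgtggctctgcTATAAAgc
Spic: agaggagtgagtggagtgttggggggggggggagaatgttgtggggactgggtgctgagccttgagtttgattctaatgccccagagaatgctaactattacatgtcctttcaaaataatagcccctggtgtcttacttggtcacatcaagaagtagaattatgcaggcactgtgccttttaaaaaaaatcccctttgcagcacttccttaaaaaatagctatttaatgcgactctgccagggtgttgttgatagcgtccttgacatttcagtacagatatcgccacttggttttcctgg
Ngfr: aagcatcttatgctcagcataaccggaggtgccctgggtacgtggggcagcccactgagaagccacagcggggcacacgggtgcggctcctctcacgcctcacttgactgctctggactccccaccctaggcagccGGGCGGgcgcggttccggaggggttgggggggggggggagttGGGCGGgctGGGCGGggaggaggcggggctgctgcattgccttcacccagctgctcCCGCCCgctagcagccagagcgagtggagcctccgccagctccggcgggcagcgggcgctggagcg
Nrros: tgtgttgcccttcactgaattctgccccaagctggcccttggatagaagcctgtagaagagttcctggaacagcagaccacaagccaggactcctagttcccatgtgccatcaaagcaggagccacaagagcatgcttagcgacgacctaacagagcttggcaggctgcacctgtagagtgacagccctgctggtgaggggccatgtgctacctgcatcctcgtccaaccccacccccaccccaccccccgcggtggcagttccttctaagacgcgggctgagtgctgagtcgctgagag
The motifs were the TATA box (TATAAA), the octamer (ATGCAAAT), the cyclic AMP response element (TGACGTCA), the E-box (CACGTG), the GC box (GGGCGG), the CCAAT box, an extended nuclear receptor site (TCAAGGTCA) and an ETS core (GAGGAA), searched on both strands, and no matches overlapped in the printed windows. Car4 held TATAAA once, beginning 43 bases into the transcript, a motif present in 13.6% of 32851 promoter windows. Ngfr held GGGCGG 4 times, at -114, -72 and -63 on the strand of the gene and at -16 on the other strand, and 35.7% of windows held this motif. No match was found in the windows of Spic and Nrros, which says only that these letters are not in these 300 bases. The Spic window lies inside the annotated gene, whose 5′ end is at 88685015, so the bases around that end were not searched. CpG dinucleotides numbered 23 in the Ngfr window, 15 in Car4, 8 in Nrros and 3 in Spic, against a median of 7 and quartiles of 3 and 20 over all windows. The GC content was 71.7% for Ngfr, 57.3% for Car4, 59.0% for Nrros and 45.0% for Spic, against a median of 52.7%.

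Among the genes that switched on, Car4 (ENSMUSG00000000805, chr11:84957786-84966044, plus strand), a carbonic anhydrase anchored to the outer face of the cell membrane, was at 31.5, 35.0 and 41.4 CPM in wt at 24 h and had 0 counts in the 3 wt libraries at 0 h. In KO clone #1 it also had 0 counts at 0 h and was at 13.5, 18.5 and 18.5 CPM at 24 h. The libraries labelled KO clone #2 held 0.122, 0.360 and 0.144 CPM at 0 h and 6.69, 4.45 and 12.6 CPM at 24 h. All 24 h libraries lay above all 0 h libraries, and at 24 h the 3 lines did not overlap, with wt highest. The level was at least 71.4-fold higher at 24 h than at 0 h in wt and at least 42.3-fold higher in KO clone #1, against a floor of 3 counts per library averaged over the group. The bound in wt was 137 without replicate 1 of wt at 0 h, the shallowest library, and that in KO clone #1 was 25 with library sizes alone. In the libraries labelled KO clone #2 the log2 fold change was 5.20 (SE 0.48), a value of 5.81 without replicate 2 at 0 h and 4.57 with a prior count of 2. At 24 h KO clone #1 was 2.14-fold below wt (log2 fold change -1.09, SE 0.35) and the libraries labelled KO clone #2 were 4.55-fold below wt (-2.19, SE 0.37, or -1.18 with library sizes alone), contrasts that share their wt libraries. In bulk RNA, fewer cells that express a gene and less RNA per cell cannot be told apart.

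Enpp2 (ENSMUSG00000022425, chr15:54838901-54952892, minus strand) encodes autotaxin, the secreted enzyme that makes lysophosphatidic acid. It had 0 counts in wt at 0 h and was at 22.3, 29.3 and 38.1 CPM at 24 h. In KO clone #1 it was at 0, 0 and 0.175 CPM at 0 h and at 4.56, 4.70 and 4.36 CPM at 24 h. The libraries labelled KO clone #2 held 0, 0 and 0.0959 CPM at 0 h and 15.6, 13.4 and 26.8 CPM at 24 h. KO clone #1 lay below every other library at 24 h, while the libraries labelled KO clone #2 overlapped wt. Over the 24 h in wt the level came to be at least 59.4-fold higher, a bound of 114 without replicate 1 of wt at 0 h. From 3 counts at 0 h, the ratio of 24 h to 0 h in KO clone #1 was 44.5 (exact 95% counting interval 15.0 to 218), within 25.2 to 45.5 over the alternatives. From 2 counts, that in the libraries labelled KO clone #2 was 628 (174 to 5193), or 399.8 without replicate 1 at 0 h. Relative to wt at 24 h, Enpp2 was 6.58-fold lower in KO clone #1 (log2 fold change -2.72, SE 0.40) and 1.61-fold lower in the libraries labelled KO clone #2 (-0.68, SE 0.37). The latter value turned to 0.33 with library sizes alone, a setting that moved the median gene of that contrast by 1.04. Gm26684, a noncoding gene on the opposite strand that overlaps Enpp2, had 0 counts in all 18 libraries.

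Wt1 (ENSMUSG00000016458, chr2:105126529-105173616, plus strand), the zinc-finger transcription factor of kidney, gonad and mesothelium, reached the highest CPM of the genes that switched on. It was at 0, 0.0918 and 0 CPM in wt at 0 h and at 49.2, 43.1 and 58.4 CPM at 24 h. KO clone #1 held 0 counts at 0 h and 1.98, 5.21 and 8.34 CPM at 24 h. The libraries labelled KO clone #2 held 0.122, 0.225 and 0.288 CPM at 0 h and 13.5, 6.15 and 11.7 CPM at 24 h. Both KO clones lay below every wt library at 24 h and overlapped each other. From 1 count at 0 h, the ratio in wt was 1329, with an exact 95% counting interval from 238 to 52498 that covers counting error only, and was 714 without replicate 3 of wt at 0 h, while in KO clone #1 the 24 h level was at least 13.0-fold that of 0 h (8.16 with library sizes alone). In the libraries labelled KO clone #2 the log2 fold change was 5.59 (SE 0.55), or 4.96 with a prior count of 2. At 24 h Wt1 was 9.65-fold lower than wt in KO clone #1 (log2 fold change -3.27, SE 0.44) and 4.82-fold lower in the libraries labelled KO clone #2 (-2.27, SE 0.41, or -1.26 with library sizes alone). Its noncoding neighbour Wt1os was at 3.17, 1.2 and 1.61 CPM in wt at 24 h, at 0.187 to 0.715 CPM in KO clone #1 and at 0.0774 to 0.521 CPM in the libraries labelled KO clone #2. At 0 h Wt1os had 1 count in the 9 libraries.

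**Figure D1:**
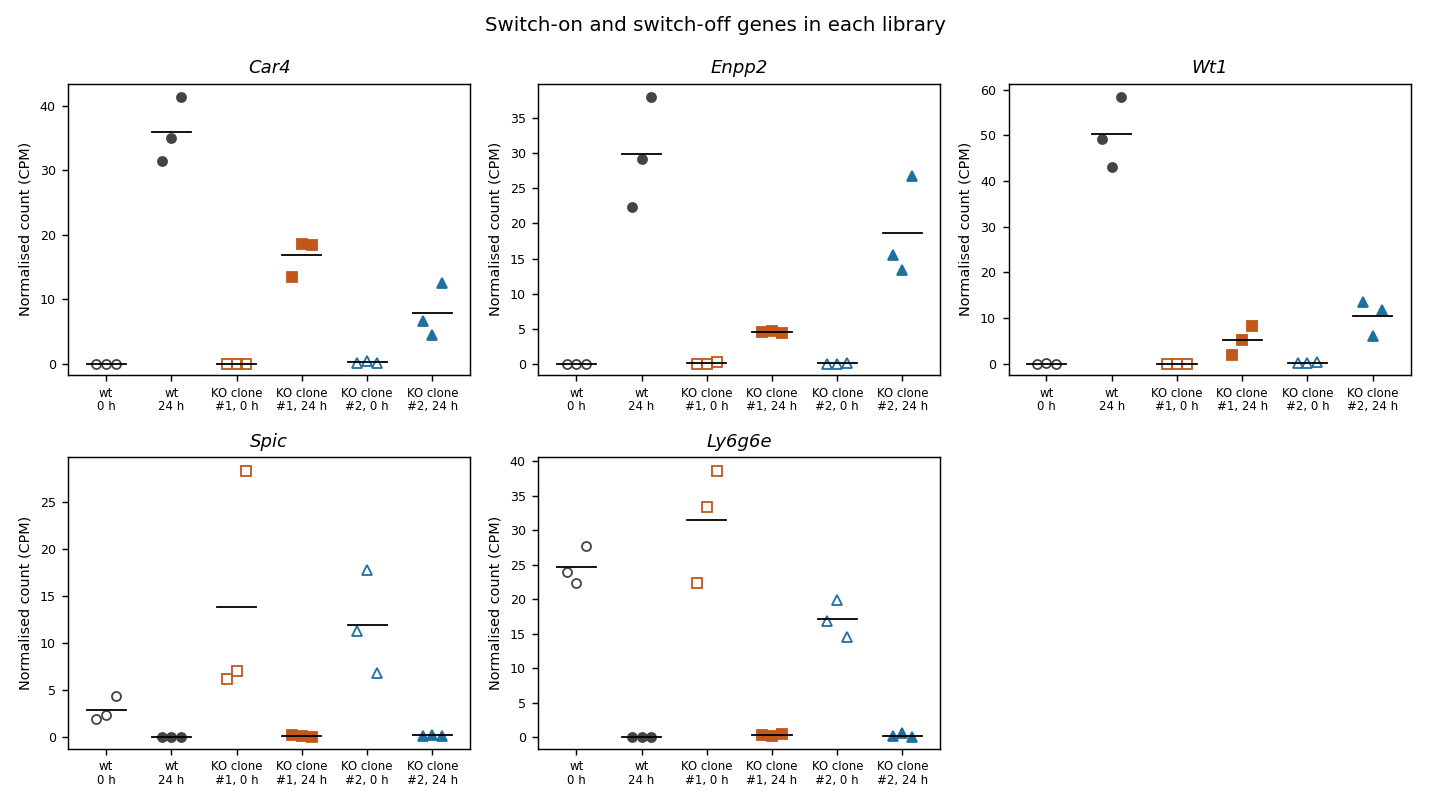
Normalised counts (CPM, linear axis) of the genes that switched on (Car4, Enpp2, Wt1) and off (Spic, Ly6g6e) in each of the 18 libraries, with open symbols for 0 h, filled symbols for 24 h and a bar at the mean of 3 replicates. At 24 h Wt1 lay at 43.1 to 58.4 CPM in wt and at 1.98 to 13.5 CPM in the KO clones, and Spic at 0 h reached 28.3 CPM in replicate 3 of KO clone #1.

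Per kilobase of annotated exon, Car4 was the most abundant of the 8 genes in wt at 24 h, with a mean of 18.3 CPM per kb, followed by Wt1 with 8.11 and Enpp2 with 5.17 CPM per kb. In the libraries labelled KO clone #2 at 24 h Fhl1 stood at 4.27, Car4 at 4.02, Nrros at 3.78, Enpp2 at 3.22 and Wt1 at 1.69 CPM per kb. In KO clone #1 Car4 stood at 8.56, Fhl1 at 3.34, Nrros at 2.59, Ngfr at 0.947, Wt1 at 0.836 and Enpp2 at 0.785 CPM per kb, and the last pair overlapped in their replicates when scaled to their exon lengths of 6195 and 5779 bases.

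At 24 h the KO clones differed from each other in Enpp2. Relative to KO clone #1, the libraries labelled KO clone #2 held 4.10-fold more Enpp2 (log2 fold change 2.03, SE 0.39, adjusted p = 0.000993 by edgeR's quasi-likelihood test), higher in 3 of 3 libraries. This call held in 15 of 15 alternatives, with log2 fold changes from 1.68 to 3.11 and adjusted p from 2.67e-07 to 0.00643. Car4 went the other way and was 2.13-fold lower in the libraries labelled KO clone #2 (-1.09, SE 0.36, adjusted p = 0.0285), lower in 3 of 3 libraries. That call was lost without replicate 2 or 3 of KO clone #1 or replicate 1 or 2 of the libraries labelled KO clone #2, with adjusted p from 0.0677 to 0.108, and with library sizes alone (-0.044, adjusted p = 0.934), which moved the median gene of this contrast by 1.07. Over all alternatives the adjusted p ran from 0.00427 to 0.934. Wt1 was 2.00-fold higher (1.00, SE 0.41, 95% interval 0.14 to 1.86) but did not pass (adjusted p = 0.0680). It passed without replicate 3 of KO clone #1 (adjusted p = 0.0169) and without replicate 2 of the libraries labelled KO clone #2 (0.0344), within a range of 0.00178 to 0.248 over all alternatives. Of the genes that switched on, Enpp2 and Car4 were thus called at 24 h, where 35.4% of all tested genes were.

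At 0 h, 26.4% of tested genes were called between the KO clones. Car4, Enpp2 and Wt1 were near 0 there and passed the filter on low counts only through their 24 h groups, so nothing is read from their 0 h tests. Car4 had 14 counts over the libraries labelled KO clone #2 and 0 in KO clone #1 (adjusted p = 0.0352, 0.0133 to 0.148 over the alternatives). The mean of 0.209 CPM was under the floor of KO clone #1, 0.398 CPM, so no fold is given. The p was above the threshold without replicate 1, 2 or 3 of KO clone #1 or replicate 2 of the libraries labelled KO clone #2, with adjusted p from 0.0638 to 0.148. Wt1 showed the same counts, 14 against 0 (adjusted p = 0.0546), and Enpp2 had 2 against 3 (adjusted p = 0.362). The libraries labelled KO clone #2 were deeper, at 14495941 to 16995756 counts, than those of KO clone #1, at 4531798 to 14613617. The test of the difference in response between the KO clones called 0.241% of all genes and 0 of the 5 switch genes by edgeR, with adjusted p of 0.120 for Car4, 0.255 for Enpp2, 0.367 for Wt1, 0.697 for Spic and 0.757 for Ly6g6e. At an unadjusted p under 0.05 there were 2 of 5, Car4 and Enpp2, where 14.8% of all genes passed. DESeq2 called 1 of 5, Car4, where it called 3.41% of the 13391 genes it gave an adjusted p (adjusted p = 0.0431, within 0.00283 to 0.334 over all alternatives). These tests rest on groups with 0 to 14 counts at 0 h for the genes that switched on and 5 to 20 counts at 24 h for those that switched off, and the number called is not read as a result.

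Of the genes that switched off, Spic (ENSMUSG00000004359, chr10:88674772-88685015, minus strand), an ETS transcription factor of the PU.1 branch known from iron-recycling macrophages, was near 0 at 24 h in every line. In wt it was at 1.97, 2.39 and 4.42 CPM at 0 h and had 0 counts in the 3 libraries at 24 h. In KO clone #1 it was at 6.26, 7.10 and 28.3 CPM at 0 h and at 0.220, 0.102 and 0.0622 CPM at 24 h. Those labelled KO clone #2 held 11.3, 17.8 and 6.81 CPM at 0 h and 0.157, 0.310 and 0.174 CPM at 24 h. All KO libraries at 0 h lay above all wt libraries at 0 h, and replicate 3 of KO clone #1 stood far above the other replicates of its group. In wt the loss of Spic over 24 h was at least 13.3-fold, a bound that was 21.9 with library sizes alone. The log2 fold change was -6.71 (SE 0.77) in KO clone #1 (-5.62 without replicate 3 at 0 h, -5.79 with a prior count of 2) and -5.73 (SE 0.67) in the libraries labelled KO clone #2. At 0 h it was 4.63-fold above wt in KO clone #1 (2.21, SE 0.56) and 3.90-fold above wt in the libraries labelled KO clone #2 (1.96, SE 0.55). Without replicate 3 of KO clone #1 the former value was 1.12. Between the KO clones no difference was called at 0 h (-0.25, 95% interval -1.30 to 0.81, adjusted p = 0.747). At 24 h Spic had 5 counts in KO clone #1 and 15 in the libraries labelled KO clone #2 and had passed the filter only through its 0 h groups, so nothing is read from that test (0.74, adjusted p = 0.579). The 0 h value was 0.85 without replicate 3 of KO clone #1, 0.034 without replicate 3 of the libraries labelled KO clone #2 and 0.053 with library sizes alone. The summed level of 8 macrophage markers at 0 h was 6.56 to 12.7 CPM in wt, 11.7 to 28.9 CPM in KO clone #1 and 14.4 to 20.2 CPM in the libraries labelled KO clone #2. It was highest in replicate 3 of KO clone #1, where Spic was highest and all 8 had at least 1 count. That library was also the deepest of its group, at 14613617 counts against 6358167 and 4531798. All 8 likewise had at least 1 count in replicate 1 of the libraries labelled KO clone #2 at 24 h, where Spic was at 0.157 CPM. Cd68 gave most of the sum, with 5181 counts in the 18 libraries together, against 394 for Itgam, 133 for Lyz2, 76 for Csf1r, 38 for Ptprc, 29 for Cx3cr1, 12 for C1qa and 11 for Adgre1. The part of the macrophage sum in the Spic levels was not tested.

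Ly6g6e (ENSMUSG00000013766, chr17:35076902-35078804, plus strand) belongs to the Ly6 family of small membrane-anchored surface proteins. It was at 23.9, 22.4 and 27.8 CPM in wt at 0 h and at 0.0587, 0.100 and 0.0618 CPM, 1 count each, at 24 h. KO clone #1 went from 22.4, 33.4 and 38.6 CPM to 0.367, 0.204 and 0.436 CPM. The libraries labelled KO clone #2 went from 16.8, 20.0 and 14.5 CPM to 0.157, 0.658 and 0 CPM. At 0 h the libraries labelled KO clone #2 lay below all others, and KO clone #1 overlapped wt. From 3 counts at 24 h, the ratio of 0 h to 24 h in wt was 361 (exact 95% counting interval 123 to 1755), within 328 to 574 over the alternatives. The log2 fold change was -6.46 (SE 0.57) in KO clone #1 and -5.86 (SE 0.54) in the libraries labelled KO clone #2, the latter -7.73 without their replicate 2 at 24 h and -5.28 without their replicate 3. Relative to wt at 0 h, KO clone #1 was at 0.35 (SE 0.41) and the libraries labelled KO clone #2 at -0.53 (SE 0.41) on the log2 scale. Relative to KO clone #1 at 0 h, the libraries labelled KO clone #2 were at -0.88 (SE 0.40, 95% interval -1.73 to -0.03), which did not pass the test (adjusted p = 0.112). It passed with only the groups compared (-0.91, adjusted p = 0.0398) and with DESeq2 (-0.90, adjusted p = 0.0406), within 0.0398 to 0.401 over all alternatives. At 24 h Ly6g6e had 14 counts in KO clone #1 and 20 in the libraries labelled KO clone #2, 17 of them in replicate 2, and had passed the filter only through its 0 h groups. Nothing is read from that test (-0.28, adjusted p = 0.775, within 0.0321 to 0.980 over all alternatives). Ly6g6d lies on the opposite strand and overlaps Ly6g6e, and whether counting used the strand is not given in the sources used here, so reads of the pair may be split between them. Ly6g6d was at 0.719 to 1.84 CPM in the 0 h libraries and at 0 to 0.367 CPM in the 24 h libraries.

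Ngfr (ENSMUSG00000000120, chr11:95568818-95587735, minus strand), the low-affinity p75 receptor for neurotrophins, moved in opposite directions in wt and in the libraries labelled KO clone #2. It was at 23.9, 13.7 and 18.8 CPM in wt at 0 h and at 4.52, 5.11 and 8.96 CPM at 24 h. In the libraries labelled KO clone #2 it was at 0.609, 0.495 and 0.528 CPM at 0 h and at 3.76, 6.0 and 1.95 CPM at 24 h. KO clone #1 was at 0.521, 1.25 and 4.61 CPM at 0 h, overlapping the libraries labelled KO clone #2, and at 1.84, 2.35 and 5.60 CPM at 24 h, where its libraries overlapped those of 0 h. All wt libraries at 24 h lay below all wt libraries at 0 h, all libraries labelled KO clone #2 at 24 h lay above those at 0 h, and at 24 h each KO clone overlapped wt. The log2 fold change with time was -1.59 (SE 0.55) in wt, 0.48 (SE 0.58) in KO clone #1 and 2.83 (SE 0.62) in the libraries labelled KO clone #2. In KO clone #1 it was 1.99 without replicate 3 at 0 h, -0.20 without replicate 3 at 24 h and -0.20 with library sizes alone. The gap to wt was larger at 0 h, where Ngfr was 7.89-fold lower in KO clone #1 (-2.98, SE 0.59, or -4.47 without its replicate 3) and 33.7-fold lower in the libraries labelled KO clone #2 (-5.08, SE 0.65). At 24 h the values were -0.91 (SE 0.55, or -1.55 without replicate 3 of KO clone #1) and -0.67 (SE 0.54), the latter 0.36 with library sizes alone. Replicate numbers pair wt and KO clone #1 at 24 h, and in each of these pairs Ngfr was lower in KO clone #1. The summed level of 8 feeder fibroblast markers at 0 h was 110 to 390 CPM in wt, 183 to 514 CPM in KO clone #1 and 331 to 898 CPM in the libraries labelled KO clone #2. Within KO clone #1 it was lowest in replicate 3, where Ngfr was highest. Within wt it was highest in replicate 1, where Ngfr was also highest. Its part in the Ngfr levels was not tested.

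Nrros (ENSMUSG00000052384, chr16:32142785-32165594, minus strand), a membrane protein that holds latent TGF-beta1 at the surface of microglia and macrophages, was higher at 24 h in the KO clones and not in wt. It was at 1.97, 1.19 and 1.83 CPM in wt at 0 h and at 0.939, 1.5 and 1.36 CPM at 24 h, which overlapped. KO clone #1 went from 1.82, 0.626 and 2.74 CPM to 8.38, 10.3 and 13.8 CPM. The libraries labelled KO clone #2 went from 0.691, 1.12 and 0.623 CPM to 14.6, 7.93 and 24.8 CPM. At 24 h all 6 KO libraries lay above all 9 libraries of 0 h and all 3 wt libraries of 24 h, and the KO clones overlapped each other. The log2 fold change with time was -0.36 (SE 0.50) in wt, 2.52 (SE 0.45) in KO clone #1 and 4.26 (SE 0.47) in the libraries labelled KO clone #2. At 24 h Nrros was 8.60-fold above wt in KO clone #1 (3.10, SE 0.46) and 12.5-fold above wt in the libraries labelled KO clone #2 (3.65, SE 0.46, or 4.67 with library sizes alone). At 0 h the values were 0.23 (SE 0.50) and -0.98 (SE 0.50), the former -0.30 without replicate 3 of KO clone #1. The macrophage sum at 24 h was 19.1 to 23.9 CPM in wt, 20.7 to 29.2 CPM in KO clone #1 and 22.3 to 31.8 CPM in the libraries labelled KO clone #2, mostly Cd68. Among its other members, mean Itgam was 1.82, 0.792 and 3.58 CPM in the same order and mean Csf1r 0, 0.0622 and 0.273 CPM, while Ptprc, Adgre1, Lyz2, Cx3cr1 and C1qa were at 0.465 CPM or lower in each line at 24 h. Their part in the Nrros levels was not tested. Summed, 6 primitive endoderm markers at 24 h were at 1.05 to 1.88 CPM in wt and 2.74 to 7.5 CPM in KO clone #1. The sum was 13.5 to 26.7 CPM in the libraries labelled KO clone #2. Pdgfra (means of 1.49 and 10.3 CPM) and Gata6 (1.42 and 6.56 CPM) led in the KO clones, but not in wt (0.246 and 0.307 CPM). In the libraries labelled KO clone #2, mean Sox17, Gata4, Sox7 and Foxa2 were at 1.49, 1.05, 0.755 and 0.347 CPM. The part of this sum in the Nrros levels was not tested.

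Fhl1 (ENSMUSG00000023092, chrX:56731787-56793346, plus strand), a protein made of LIM domains that is abundant in muscle, was lower at 24 h in wt, while its time points overlapped in the KO clones. It was at 18.7, 20.0 and 24.9 CPM in wt at 0 h and at 6.28, 6.61 and 6.12 CPM at 24 h. In KO clone #1 it was at 14.6, 12.7 and 13.5 CPM at 0 h and at 11.2, 14.2 and 11.8 CPM at 24 h. Those labelled KO clone #2 held 17.8, 15.3 and 17.9 CPM at 0 h and 11.4, 22.4 and 13.7 CPM at 24 h. The time points did not overlap in wt, and the wt libraries at 24 h lay below all others. The log2 fold change was -1.75 (SE 0.25) in wt, -0.14 (SE 0.24, 95% interval -0.64 to 0.37) in KO clone #1 and -0.10 (SE 0.23, -0.59 to 0.39) in the libraries labelled KO clone #2. With library sizes alone the value in KO clone #1 was -0.96, in a setting that moved the median gene of that response by -0.79. In the libraries labelled KO clone #2 it was -0.43 without replicate 2 at 24 h. Against wt at 24 h, Fhl1 was 1.96-fold higher in KO clone #1 (0.97, SE 0.24) and 2.50-fold higher in the libraries labelled KO clone #2 (1.32, SE 0.24, or 2.39 with library sizes alone). At 0 h it was 1.56-fold lower in KO clone #1 (-0.64, SE 0.24) and at -0.33 (SE 0.24) in the libraries labelled KO clone #2. The fibroblast sum at 24 h was 19.0 to 34.6 CPM in wt, 38.7 to 51.8 CPM in KO clone #1 and 71.0 to 219 CPM in the libraries labelled KO clone #2, the order of the Fhl1 means. Its members Dcn (means of 5.80, 1.34 and 7.18 CPM) and Thy1 (2.38, 2.24 and 4.37 CPM) were lower in KO clone #1 than in wt, unlike the others. Within the libraries labelled KO clone #2, however, the sum was lowest, 71.0 CPM, in replicate 2, where Fhl1 was highest, and its part in the Fhl1 levels was not tested. An annotated small nuclear RNA gene, Gm23258, lies within Fhl1 on the same strand.

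**Figure D2:**
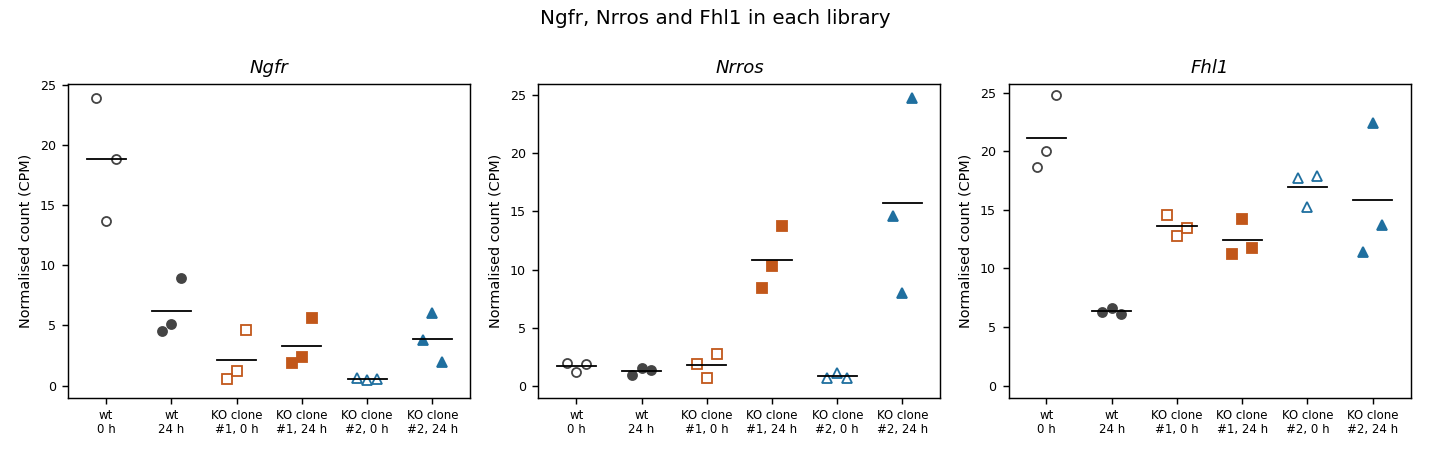
Normalised counts (CPM, linear axis) of Ngfr, Nrros and Fhl1 in each of the 18 libraries, with open symbols for 0 h, filled symbols for 24 h and a bar at the mean of 3 replicates. Ngfr ran from 13.7 to 23.9 CPM in wt at 0 h and was at 4.61 CPM or lower in the KO clones at 0 h, Nrros was at 7.93 CPM or higher only in KO libraries at 24 h, and Fhl1 was lowest in wt at 24 h.

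**Figure D3:**
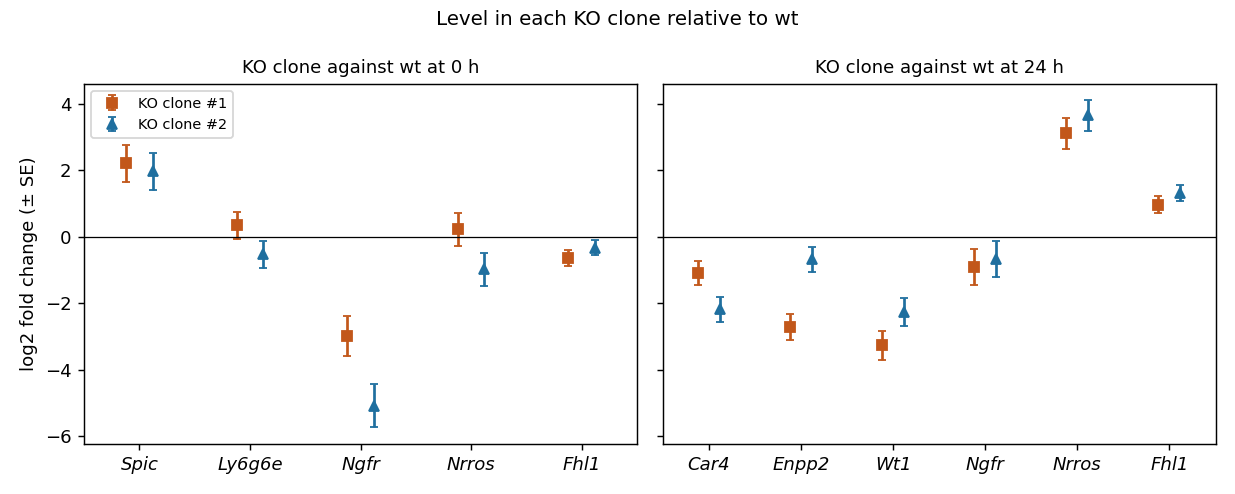
Fitted log2 fold changes (points, with bars of 1 SE) of KO clone #1 and the libraries labelled KO clone #2 against wt at 0 h and 24 h, for the genes with more than 3 counts in each group concerned. Both clones share the wt libraries, and the clones stood apart most for Enpp2 at 24 h (-2.72 and -0.68) and Ngfr at 0 h (-2.98 and -5.08).

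Between the KO clones, Ngfr, Nrros and Fhl1 are given without a test because their dependence on the clone chose them. At 0 h the libraries labelled KO clone #2 were at -2.10 (SE 0.64) for Ngfr relative to KO clone #1, a value of -0.60 without replicate 3 of KO clone #1. For Nrros the value was -1.21 (SE 0.48), or -0.67 without the same library, and for Fhl1 it was 0.32 (SE 0.24). At 24 h the values were 0.24 (SE 0.55) for Ngfr, 0.54 (SE 0.40) for Nrros and 0.36 (SE 0.24) for Fhl1. With library sizes alone they were 1.24, 1.55 and 1.47, in a setting that moved the median gene by 1.07. They were 0.88 for Ngfr without replicate 3 of KO clone #1, 0.058 for Nrros without replicate 3 and 0.022 for Fhl1 without replicate 2 of the libraries labelled KO clone #2. Replicate 3 of KO clone #1 at 0 h had the highest Spic, Ly6g6e, Ngfr and Nrros of its group and the lowest fibroblast sum, 183 CPM against 378 and 514 CPM.

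The genes whose log2 CPM followed each member most closely over the 18 libraries, among tested genes with an average log2 CPM of at least 2, were named by the highest Pearson r, a description in which all points share libraries and time points. For Car4 they were Epcam, an epithelial adhesion gene (r = 0.979), Bms1 (0.976) and Snx24 (0.976). Enpp2 was followed by Vrtn (0.972), Epcam (0.970) and Dnmt3a, a DNA methyltransferase of the formative state (0.969), and Wt1 by the same genes, Vrtn (0.972), Epcam (0.965) and Dnmt3a (0.962). Spic was closest to Tmtc4 (0.962), Cryz (0.961) and Prss35 (0.954), and Ly6g6e to the naive-state nuclear receptor Nr5a2 (0.978), Rell1 (0.977) and the connexin Gjb5 (0.977). The 3 genes chosen for their dependence on the line had looser company, with Fam117a for Ngfr (0.887), Zkscan5 for Nrros (0.860) and Bhlhe40 for Fhl1 (0.861) leading.

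Relatives and pathway partners of the members were tested for their response in each line, by lists that leave the members out and were drawn up with earlier results of these data known. Over all tested genes, 26.0% rose and 24.7% fell in wt, 20.1% rose and 20.6% fell in KO clone #1, and 12.7% rose and 13.3% fell in the libraries labelled KO clone #2. Across these genes the median response was 0.030, 0.0037 and -0.028 on the log2 scale in the same order.

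Carbonic anhydrases, of which 12 were tested, counted 4 that rose and 2 that fell in wt (3 and 3 with library sizes alone), 4 and 2 in KO clone #1 (2 and 5 with library sizes alone) and 3 and 1 in the libraries labelled KO clone #2. The medians were -0.03, 0.17 and -0.39, or -0.67, -0.66 and -0.43 with library sizes alone. Car2, a cytosolic carbonic anhydrase, rose in every line, from a mean of 2.77 to 90.2 CPM in wt (log2 fold change 4.98, SE 0.39), from 21.6 to 227 CPM in KO clone #1 (3.38, SE 0.34) and from 21.4 to 99.8 CPM in the libraries labelled KO clone #2 (2.22, SE 0.32). Car3 also rose in every line, from at most 0.0285 CPM to 1.69 to 2.49 CPM. Car9, a membrane enzyme known from hypoxic cells, rose in wt (2.20, SE 0.60) and KO clone #1 (1.93, SE 0.59) and was at 0.38 (SE 0.48) in the libraries labelled KO clone #2. The difference of its response from wt was not called in either KO clone (adjusted p = 0.990 and 0.173 by edgeR). Mitochondrial Car5a fell in wt (-5.45, SE 0.94) and KO clone #1 (-2.41, SE 0.80). It was at -1.89 (SE 0.72, adjusted p = 0.0587) in the libraries labelled KO clone #2. Neither KO clone had a called difference in response from wt (adjusted p = 0.455 and 0.130).

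Around Enpp2, 12 genes of the ENPP family and the lysophosphatidic acid pathway were tested, with 3 that rose and 4 that fell in wt (1 and 4 with library sizes alone), 4 and 2 in KO clone #1 (2 and 6 with library sizes alone), and 4 and 2 in the libraries labelled KO clone #2 (2 and 2 with library sizes alone). The medians were -0.03, 0.09 and 0.28, or -0.65, -0.70 and 0.24 with library sizes alone. Enpp3, an ectoenzyme that cleaves nucleotides, rose in all lines, by 4.75 (SE 0.29), 4.02 (SE 0.28) and 3.45 (SE 0.26), and its relative Enpp5 fell in all lines, at -3.0 (SE 0.52), -2.08 (SE 0.53) and -2.00 (SE 0.44). Of the receptors for the product of Enpp2, Lpar1 fell in wt (-1.67, SE 0.35) and was at -0.32 (SE 0.33) and -0.41 (SE 0.33) in the KO clones, and Lpar5 fell in wt (-3.38, SE 0.64) and was at -1.22 (SE 0.55) and -0.75 (SE 0.52). In the test of the difference in response from wt, 0.391% of all genes were called for KO clone #1 and 1.47% for the libraries labelled KO clone #2, and neither Lpar1 (adjusted p = 0.285 and 0.134) nor Lpar5 (adjusted p = 0.352 and 0.0916) was among them.

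Of 8 relatives and partners of Wt1, 3 rose and 4 fell in wt (1 and 4 with library sizes alone), 3 rose and 2 fell in KO clone #1 (0 and 3 with library sizes alone) and 1 rose in the libraries labelled KO clone #2. The medians were -0.51, -0.26 and -0.08, or -1.11, -1.07 and -0.12 with library sizes alone. Basp1, a corepressor that binds Wt1, rose in every line, by 2.46 (SE 0.24), 1.39 (SE 0.23) and 1.89 (SE 0.23). Pawr, another Wt1 partner, fell in wt (-1.82, SE 0.26) and KO clone #1 (-1.37, SE 0.25) and was at -0.32 (SE 0.25) in the libraries labelled KO clone #2. The immediate early gene Egr1, whose zinc fingers resemble those of Wt1, fell in wt (-5.27, SE 1.34) and KO clone #1 (-3.95, SE 1.30) and was at 1.17 (SE 1.08) in the libraries labelled KO clone #2. Its difference in response from wt was not called in either KO clone (adjusted p = 0.864 and 0.0634 by edgeR).

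ETS factors other than Spic had more falls than rises in each line: of 15 tested, 3 rose and 8 fell in wt, 2 and 9 in KO clone #1 and 2 and 4 in the libraries labelled KO clone #2, with medians of -0.90, -0.92 and -0.27. Falls outnumbered rises in each line under each scaling tried. Spi1, which encodes PU.1, the macrophage relative of Spic, fell in all lines, from means of 2.11, 3.46 and 1.10 CPM to 0.201, 0.0660 and 0.117 CPM. Elf3 fell in all lines, at -4.20 (SE 0.35), -2.42 (SE 0.32) and -2.24 (SE 0.32), as did Elf4, at -4.08 (SE 0.49), -3.15 (SE 0.47) and -1.99 (SE 0.43). Etv4, a target of FGF signalling, rose in all lines, by 3.89 (SE 0.40), 3.49 (SE 0.39) and 2.54 (SE 0.37).

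Among 10 tested genes of the Ly6 and uPAR family, 3 rose and 2 fell in wt, 3 and 2 in KO clone #1 and 1 and 4 in the libraries labelled KO clone #2, with medians of 0.26, 0.61 and -0.86. The first and second medians were -0.35 and -0.18 with library sizes alone. Plaur, the urokinase receptor, rose in all lines, by 2.42 (SE 0.36), 2.13 (SE 0.34) and 1.19 (SE 0.32), and the complement inhibitor Cd59a fell in all lines, at -2.28 (SE 0.59), -1.71 (SE 0.41) and -2.11 (SE 0.39).

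In the neurotrophin system, 15 tested genes held 1 that rose and 3 that fell in wt (0 and 5 with library sizes alone), 0 and 6 in KO clone #1 (0 and 11 with library sizes alone) and 0 and 2 in the libraries labelled KO clone #2. The medians were -0.19, -0.72 and -0.23, or -0.81, -1.49 and -0.27 with library sizes alone. Lingo1, a coreceptor of Ngfr, fell in all lines, from means of 0.549, 1.14 and 0.666 CPM to 0.0206, 0.200 and 0.165 CPM. Sorcs2 fell in wt alone by these calls (-1.40, SE 0.39), with -0.97 (SE 0.39) and -0.32 (SE 0.37) in the KO clones and no called difference in response from wt (adjusted p = 0.853 and 0.231).

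Genes of latent TGF-beta storage and activation, 16 of them, counted 1 rise and 10 falls in wt, 0 and 8 in KO clone #1 (0 and 13 with library sizes alone) and 1 and 5 in the libraries labelled KO clone #2. Their medians were -1.59, -1.25 and -0.96, or -2.17, -2.03 and -0.99 with library sizes alone, and falls outnumbered rises under each scaling tried. The summed level of the feeder fibroblast markers was also below its 0 h range in each line. At 24 h it was 19.0 to 34.6 CPM in wt, 38.7 to 51.8 CPM in KO clone #1 and 71.0 to 219 CPM in the libraries labelled KO clone #2. Dcn alone of these markers rose, from means of 0, 0.223 and 4.04 CPM to 5.80, 1.34 and 7.18 CPM in the same order. The part of the feeder fibroblast sum in these falls was not tested. Lrrc32, the relative of Nrros that presents latent TGF-beta on other cells, fell in all lines, at -1.88, -1.77 and -2.15 (adjusted p = 0.00586, 0.0106 and 0.00219), a gene added to those named by rule. Tgfb2 fell at -2.07 (SE 0.61), -3.60 (SE 0.66) and -2.03 (SE 0.54). The binding protein Ltbp2 fell in wt (-2.72, SE 0.65) and KO clone #1 (-1.96, SE 0.60), with -1.41 (SE 0.55) in the libraries labelled KO clone #2. It had no called difference in response from wt (adjusted p = 0.832 and 0.350 by edgeR). Tgfb1, whose latent form Nrros binds, rose by 1.90 (SE 0.51, adjusted p = 0.0112) in the libraries labelled KO clone #2, with 1.31 (SE 0.54, adjusted p = 0.0584) in KO clone #1 and 1.02 (SE 0.61, adjusted p = 0.167) in wt, no called difference in response from wt (adjusted p = 0.516 and 0.950), and was likewise added to those named by rule.

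LIM-only and related proteins, 20 tested, counted 6 that rose and 1 that fell in wt (3 and 3 with library sizes alone), 7 and 1 in KO clone #1 (1 and 8 with library sizes alone) and 4 and 3 in the libraries labelled KO clone #2 (3 and 1 with library sizes alone). The medians were 0.76, 0.0023 and 0.12, or 0.13, -0.80 and 0.097 with library sizes alone. Lmo4 rose by 2.03 (SE 0.36), 1.54 (SE 0.35) and 2.16 (SE 0.34) and Pdlim7 by 2.07 (SE 0.31), 1.37 (SE 0.30) and 1.43 (SE 0.30). Crip2 rose in wt (2.50, SE 0.34) and KO clone #1 (1.71, SE 0.32) and was at 0.41 (SE 0.31) in the libraries labelled KO clone #2.

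**Figure D4:**
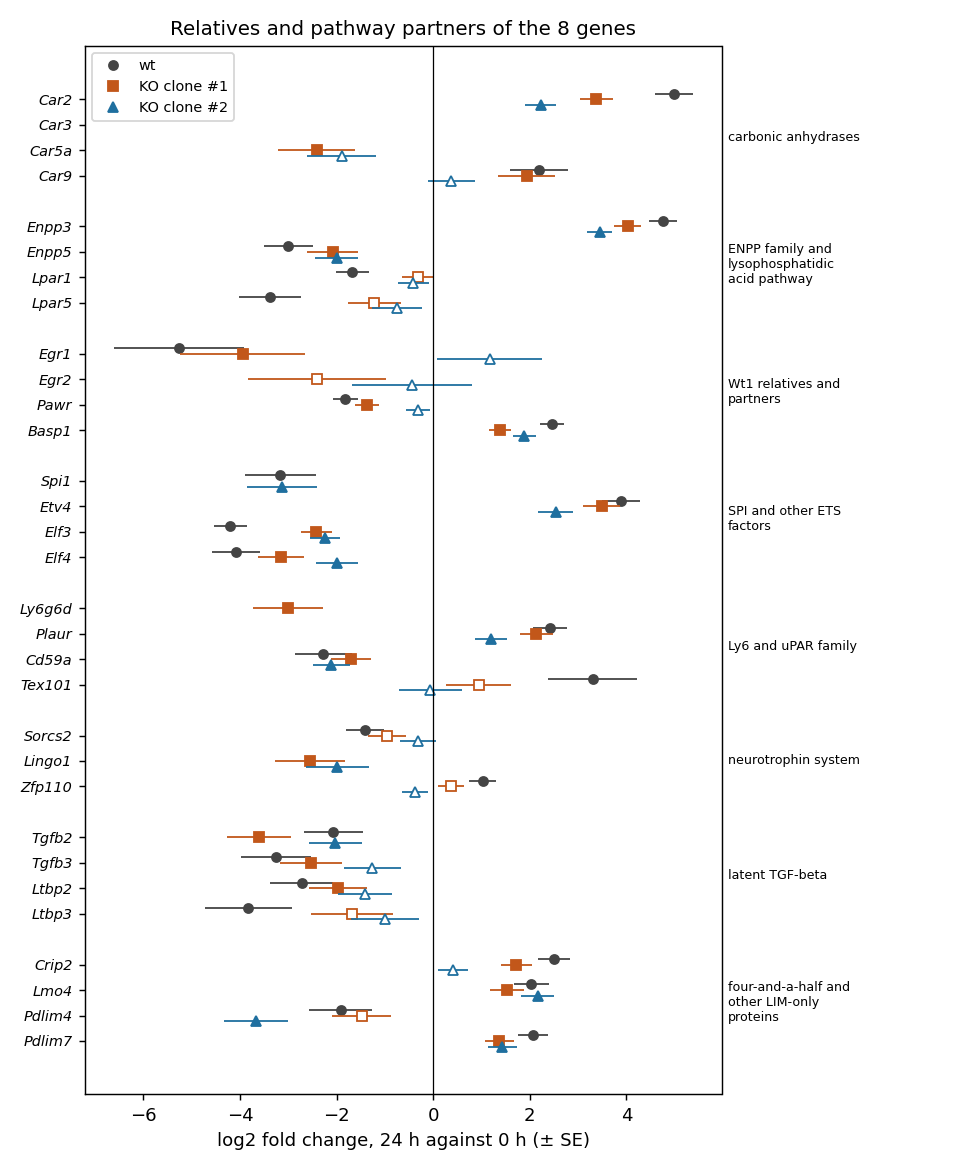
Log2 fold change from 0 h to 24 h (points, with bars of 1 SE) of selected relatives and partners of the 8 genes in wt, KO clone #1 and the libraries labelled KO clone #2, with filled symbols for an adjusted p under 0.05 and no symbol where a group had at most 3 counts. Enpp3, Etv4 and Basp1 rose in all lines, and Lpar1 was at -1.67 in wt and at -0.32 and -0.41 in the KO clones, with no called difference in response from wt (adjusted p = 0.285 and 0.134 by edgeR).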

How the data were processed

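Stranded libraries from total RNA were sequenced as paired ends by the authors, who trimmed adapters with Trim Galore, discarded ribosomal sequences and aligned the reads to GRCm38 with STAR. The deposited values are counts, whole and not normalized, for 45706 genes and 18 libraries. The submitters' processing notes name DESeq2, and the annotation release and the use of strand in counting are not given in the sources used here. Groups were taken from the sample titles.

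The filter filterByExpr (minimum count 10) kept 16619 genes for analysis. After TMM scaling, 1 quasi-likelihood model of 6 groups was fitted with edgeR 4.0.16 in R 4.3.3 (common dispersion 0.0970, prior degrees of freedom 6.39). A gene was called where its p-value, adjusted over all tested genes by the Benjamini-Hochberg method, was under 0.05. SE denotes the standard error of a log2 fold change. CPM are depth-scaled counts with TMM-scaled library sizes. Where a group held 0 counts, folds were computed against 3 counts per library. Where it held 1 to 3, the ratio of summed counts is given with an exact 95% interval. Coordinates and exon lengths come from GENCODE M21, which held 45143 of the gene identifiers. Correlations used log2 CPM with a prior count of 2.

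The 8 members, the lists of relatives and the markers were chosen with earlier results of these data known. Named were the members, up to 4 genes called in at least 1 response per list by size in wt, and the 3 genes most like each member. The alternatives were RLE factors, library sizes alone, DESeq2 1.42.0, other filters, only the groups compared, a replicate block, an adjusted p under 0.01, a prior count of 2 and leaving out each library. Protein-coding genes only was added after seeing the data. The steps were tested on simulated data. Some named genes and a marker list are not reported here. Deviations from the group means correlated between same-numbered libraries of wt and KO clone #1 at 24 h (r = 0.480, 0.223 and 0.587), so numbers pair these libraries. No other pair of groups had r over 0.1 for all 3 numbers.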

Additional observations from a re-analysis of the deposited data

Results flagged for a closer look

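Ngfr was set apart because wt and the libraries labelled KO clone #2 moved in opposite directions over 24 h in 3 of 3 libraries each, with log2 fold changes of -1.59 and 2.83. This difference was not tested, since it chose the gene. Among the relatives, in lists of 8 to 20 tested genes each, 4 genes responded differently in the libraries labelled KO clone #2 than in wt. This was by edgeR's interaction test, which called 1.47% of all tested genes, and the number called is not read as a result. Car2 responded less (log2 difference -2.76, SE 0.47, adjusted p = 0.00883), as did Crip2 (-2.10, SE 0.45, adjusted p = 0.0273). Pawr fell in wt and its response differed by 1.5 (SE 0.35, adjusted p = 0.0401), and that of Elf3 differed by 1.96 (SE 0.44, adjusted p = 0.0322). In the same test for KO clone #1, which called 0.391% of all genes, none of these 4 was called, with adjusted p of 0.172 for Car2, 0.598 for Crip2, 0.733 for Pawr and 0.0886 for Elf3.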

How the results depend on the processing

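The 3 replicates per group and libraries as small as 3466436 counts limit what can be seen of genes that are off, and replicate numbers did not pair the libraries of any groups but wt and KO clone #1 at 24 h (mean r = 0.0531 over 45 same-numbered pairs of all groups, 16 over 0.1). With the replicate block the genes called for the difference in response between the KO clones went from 40 to 103, sharing 39, and Wt1 became called at 24 h (1.08) and at 0 h (adjusted p = 0.0462). No other call of the switch genes changed with it, and the 6 fitted values of KO clone #1 against wt at 24 h moved by less than 1 SE. For the difference in response from wt, the block took the genes called from 65 to 50 for KO clone #1, with no relative called in either fit (adjusted p of Elf3 0.0886 and 0.118), and from 244 to 447 for the libraries labelled KO clone #2, where Enpp3, Egr1 and Zfp110 became called (adjusted p = 0.0210, 0.0430 and 0.0292). The cause was not tested for any change given here.

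Counts of called genes moved beyond 1.5 times as follows. At an adjusted p under 0.01 there were 3999 in KO clone #1 and 2275 in the libraries labelled KO clone #2 over time, and 1914 at 0 h, 3402 at 24 h and 1 in response between the clones. With at least 10 counts in every library, fewer genes were tested and 2614 were called over time in the libraries labelled KO clone #2 and 2900 between clones at 0 h. With library sizes alone 9986 were called between clones at 24 h and 222 in response, where rises made up 95.5% of the former against 54.5% in the TMM fit. The response count was 783 with no filter, 6 with only the groups compared and 457 with DESeq2. Leaving out 1 library gave 2534 to 4104 over time in the libraries labelled KO clone #2, 2601 to 3613 between clones at 0 h and 5 to 120 in response.

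Between the clones, library sizes alone gave 0.053 for Spic at 0 h, and at 24 h -0.044 for Car4, 1.99 for Wt1 and 0.77 for Ly6g6e, with medians of all genes shifted by 0.31 and 1.07. Car4 (-1.09 at 24 h, adjusted p = 0.0352 at 0 h) did not pass 0.01. Wt1 at 0 h was called with library sizes alone (adjusted p = 0.0449), no filter (0.0133) and DESeq2 (0.0444), and at 24 h with no filter (1.03) and protein-coding genes only (1.08). Ly6g6e at 0 h was called with only the groups compared (-0.91) and DESeq2 (-0.90), and the response of Car4 with no filter (adjusted p = 0.00283) and DESeq2 (0.0431). Leaving out 1 library gave adjusted p of 0.0421 to 0.148 for Car4 and 0.0916 to 0.599 for Enpp2 (reversed at 0.575) at 0 h, and 0.140 to 0.852 for the response of Enpp2. Log2 values then ran from -0.65 to 0.85 for Spic at 0 h, including 0.034. At 24 h they ran from -1.59 to -0.80 for Car4, 0.58 to 1.52 for Wt1 and -2.15 to 0.29 for Ly6g6e, and in response from -0.11 to 1.65 for Spic and -1.27 to 1.17 for Ly6g6e. Of the other values, 862 stayed within 1 SE, the replicate spread or the counting interval and 62 moved beyond it, and 0 turned sign among those beyond 2 SE. Library sizes alone shifted the median response by -0.61 in wt and -0.79 in KO clone #1, with -1.01 for Nrros and -2.39 for Fhl1 in wt, and 1.75 for Nrros, -7.49 for Spic and -7.22 for Ly6g6e in KO clone #1. Against wt at 0 h, the libraries labelled KO clone #2 were then at -0.079 for Ly6g6e and 0.13 for Fhl1. With at least 10 counts in every library, Fhl1 alone of the 8 genes could be fitted.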

Other observations

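Over the 18 libraries the log2 CPM of the genes that switched on went together, as their choice for a common switch fixes, with Pearson r of 0.949 for Car4 and Enpp2, 0.964 for Car4 and Wt1 and 0.969 for Enpp2 and Wt1, and Spic and Ly6g6e stood at 0.938. Ngfr, Nrros and Fhl1 did not follow each other, with r of 0.150 for Ngfr and Nrros, 0.00354 for Ngfr and Fhl1 and 0.0233 for Nrros and Fhl1. Fhl1 stood at -0.729 with Wt1, -0.705 with Car4, -0.665 with Enpp2, 0.641 with Ly6g6e and 0.595 with Spic, and Nrros between -0.593 with Ly6g6e and 0.553 with Enpp2. These values describe libraries that share 2 time points and 3 lines.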
